A study of Homo sapiens with 12 samples.

Results

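The insulin-like growth factor (IGF) binding proteins IGFBP2 to IGFBP7, the receptors IGF1R and IGF2R and the receptor substrates IRS1 and IRS2 were examined in 2 breast cancer cell lines. These 10 genes were taken by name out of 19775 genes on the array. Each gene was represented by the probe set that is annotated to it alone and has the highest mean over the 12 arrays.

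IGFs are small secreted growth factors that activate the tyrosine kinase IGF1R at the cell surface. The activated receptor phosphorylates the docking proteins IRS1 and IRS2, which recruit PI3 kinase and so connect the receptor to AKT and the FOXO transcription factors. IGF2R, which is also the cation-independent mannose 6-phosphate receptor, has no kinase domain and takes IGF-II and lysosomal enzymes to lysosomes. The secreted binding proteins hold IGFs away from the receptor or carry them, and proteases that cut the binding proteins set IGFs free. In breast cancer cells the pathway is known for its effects on growth, survival and movement.

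Hs578T is a breast carcinoma line with mesenchymal features that lacks the oestrogen receptor, and BT-20 is a basal-type breast carcinoma line that also lacks it. Cells of both lines received oligonucleotides at 200 nM with the liposomal reagent DOTAP for 24 h. CDH13 M is a double-stranded DNA from exon 1 of CDH13 with methylated CpG cytosines, CDH13 U is its unmethylated form, ODN2006 is a single-stranded CpG oligodeoxynucleotide known as a ligand of Toll-like receptor 9, and ODN2006 CTL is its GpC control. Each line gave 2 arrays for CDH13 M (M) and 2 for CDH13 U (U), named set 1 and set 2 and described in the labels as biological replicates, and 1 array each for ODN2006 and ODN2006 CTL. Every culture was thus treated with DNA and DOTAP, and neither untreated cells nor a DOTAP-only control entered the comparisons here. Each line derives from a single tumour, so the comparison of Hs578T with BT-20 is one of 2 lines and not of 2 tumour types.

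The oligonucleotides are printed because they are what distinguishes the treatments. Capitals mark each CG.
ODN2006: tCGtCGttttgtCGttttgtCGtt
ODN2006 CTL: tgctgcttttgtgcttttgtgctt
CDH13 U: tCGgatCGccCGgcaCGggcagggtgaggg
CDH13 U complementary strand: ccctcaccctgccCGtgcCGggCGatcCGa
CDH13 M has the sequence of CDH13 U with a methyl group on the cytosine of every CG, which counted from the 5′ end are bases 2, 7, 11 and, last, 16 of the printed strand and bases 14, 19, 23 and, last, 28 of its complement. ODN2006 has 4 CG in 24 bases, and ODN2006 CTL has 0.

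Values are log2 GCRMA values as the submitters computed them, and their precision is limited by the number of arrays. The array medians lay between 3.01 and 3.09, and the correlation of 2 arrays over all probe sets was 0.985 to 0.998 inside a line and 0.887 to 0.906 across lines. A level of 5 was chosen as the limit below which a probe set is called dim here, which is not a detection call. Hs578T showed the mesenchymal features of its description: 8 of 8 epithelial markers were lower in Hs578T than in BT-20, with a median difference of -6.33 once values under 5 are raised to 5, and 8 of 8 mesenchymal markers were higher, with a median of 7.11 on the same values. The epithelial keratin KRT18 nevertheless averaged 12.79 in Hs578T, and the mesenchymal FN1 averaged 11.82 in BT-20. In each list 6 of the 8 markers were dim in 1 line. The oestrogen receptor and basal markers were not among the genes examined. Of 4 blood and endothelial markers measured, PTPRC, CD3E and VWF stayed under 5 in every array, and PECAM1 reached 6.69 in Hs578T. The summed level of these 4 markers was 5.08 to 6.91 in Hs578T and 4.54 to 4.63 in BT-20 (log2 of the sum). That of the epithelial markers was 12.34 to 12.99 in Hs578T and 16.09 to 16.38 in BT-20, and that of the mesenchymal markers 16.93 to 17.10 in Hs578T and 10.40 to 12.90 in BT-20. The part of these marker differences in the results was not tested. In bulk RNA, fewer cells that express a gene and less of its RNA per cell cannot be told apart.

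Hs578T was first compared with BT-20 in the 8 M and U arrays. All 10 genes passed the test (limma, adjusted p under 0.05 over 10410 genes), 6 of them higher and 4 lower in Hs578T, but 74.6% of all genes tested also passed, 34.4% higher and 40.2% lower. With values under 5 raised to 5, the median difference was 2.05 over the 10 genes and -0.08 over all genes tested. The 10 genes lay on both sides of 0, and their median falls between IGF2R (0.53) and IRS1 (3.57) with no gene near it. IGFBP2, IGFBP3, IGFBP4, IGFBP6, IGFBP7, IRS1 and IRS2 were at 5 or above in only 1 of the lines. These 7 genes were admitted to the test by the line in which they are high, so their passing is no support. A dim value gives only a limit, so the differences of these 7 genes are given as lower bounds, computed with values under 5 raised to 5, and their p-values belong to the fit on the values as deposited. Only IGFBP5, IGF1R and IGF2R were at 5 or above in both lines, that is 3 of 10, whereas 83.5% of the genes tested reached 5 in at least 2 arrays of each line. Over all 12 arrays the lines did not overlap for 9 of the 10 genes, as for 65.2% of all genes tested, and IGF2R overlapped.

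**Figure D1:**
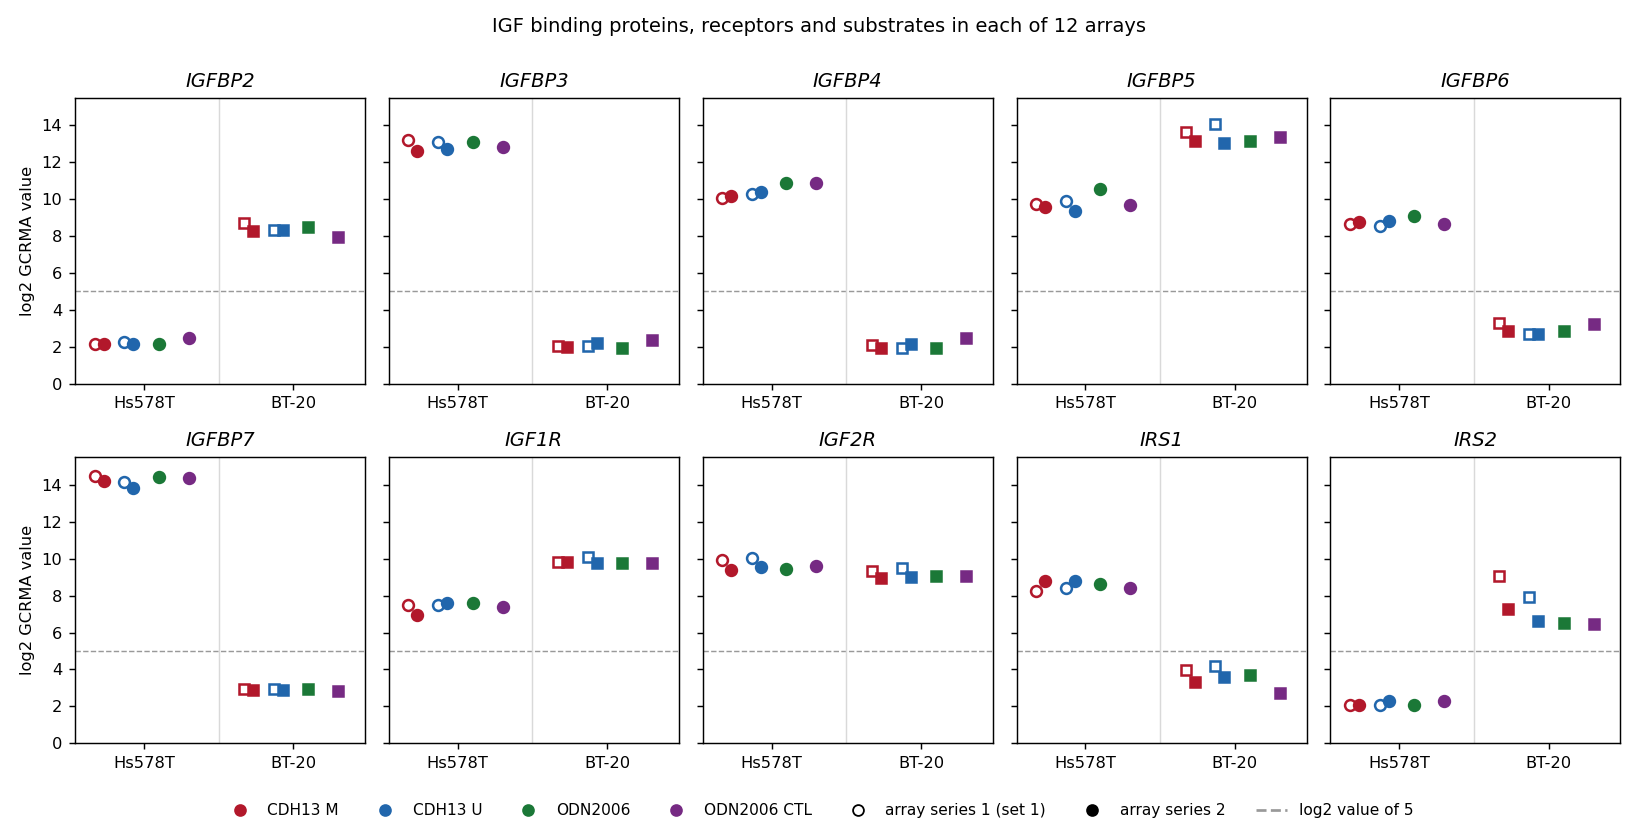
Log2 GCRMA value (vertical axis) of each of the 10 genes in each array, Hs578T on the left and BT-20 on the right of every panel; colours give the oligonucleotide, open symbols array series 1 (set 1) and filled symbols array series 2, and the dashed line the level of 5. IGFBP3, IGFBP4, IGFBP6, IGFBP7 and IRS1 lie above the line in Hs578T only, IGFBP2 and IRS2 in BT-20 only, and the lines overlap for IGF2R alone.

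Among the binding proteins, IGFBP3, IGFBP4, IGFBP6 and IGFBP7 were the Hs578T genes. IGFBP7, a secreted protein of the vascular and stromal matrix that binds IGFs only weakly, read 14.48 and 14.19 in the M arrays of Hs578T (set 1, then set 2) and 14.18 and 13.81 in the U arrays, against 2.92, 2.88, 2.92 and 2.90 in the same arrays of BT-20. Every Hs578T array was near the top of the scale and every BT-20 array was dim. The level was at least 575-fold higher in Hs578T (log2 difference of at least 9.17, limma adjusted p = 5.99e-09). Of the other 2 probe sets of IGFBP7, one was higher in Hs578T by at least 8.95 on the log2 scale, and the other reached 5 in only 2 arrays.

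IGFBP3, the main carrier of IGFs in blood, read 13.22, 12.59, 13.10 and 12.74 in Hs578T (M set 1, M set 2, U set 1, U set 2), against 2.07, 2.02, 2.06 and 2.19 in BT-20. The level was at least 241-fold higher in Hs578T (log2 difference of at least 7.91, limma adjusted p = 1.39e-08). IGFBP4, which inhibits IGF action until the protease PAPP-A cuts it, read 10.05, 10.15, 10.26 and 10.39 in Hs578T, against 2.11, 1.92, 1.96 and 2.16 in BT-20. The lines were again fully apart, by at least 37.1-fold (adjusted p = 7.24e-09). IGFBP6, which prefers IGF-II to IGF-I, averaged 8.71 ± 0.11 in Hs578T and 2.88 ± 0.27 in BT-20 (SD, n = 4 arrays each, from 2 sets), a level at least 13.0-fold higher in Hs578T (adjusted p = 7.22e-08).

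IGFBP2 and IGFBP5 were the BT-20 genes. IGFBP2, a binding protein of developing tissues and many carcinomas, read 2.15, 2.13, 2.28 and 2.14 in Hs578T, against 8.73, 8.29, 8.31 and 8.32 in BT-20. It was dim in every Hs578T array, and its level there was at least 10.7-fold lower (limma adjusted p = 3.92e-08). IGFBP5, which attaches to the extracellular matrix and is abundant in involuting mammary gland, was measured well above 5 in both lines, at 9.74, 9.55, 9.89 and 9.37 in Hs578T, against 13.64, 13.16, 14.05 and 13.06 in BT-20. The highest Hs578T array was below the lowest BT-20 array, and the level was 14.3-fold lower in Hs578T (log2 difference -3.84, SE 0.25, adjusted p = 1.40e-05). All 6 probe sets of IGFBP5 were lower in Hs578T, by log2 differences of -5.50 to -3.84 with values under 5 raised to 5, and the representative probe set gave the smallest of these differences.

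Of the receptors, IGF1R was lower in Hs578T and IGF2R was close between the lines. IGF1R read 7.49, 6.97, 7.49 and 7.63 in Hs578T, against 9.83, 9.80, 10.08 and 9.78 in BT-20. The groups were separate, and the level in Hs578T was 5.56-fold lower (log2 difference -2.47, SE 0.14, limma adjusted p = 7.66e-06). The 3 probe sets of IGF1R at 5 or above in all 12 arrays gave differences of -3.35 to -2.47, and a further one that was dim in Hs578T was also lower there. IGF2R read 9.94, 9.36, 10.06 and 9.57 in Hs578T, against 9.36, 8.95, 9.47 and 9.03 in BT-20. The ranges overlapped, since M set 2 of Hs578T lay below U set 1 of BT-20. A second probe set of IGF2R, also at 5 or above in all 12 arrays, gave differences of 0.57 in the M and U arrays and 0.61 in the ODN arrays, and with it the lines did not overlap. The representative probe set's difference of 0.53 (95% interval 0.04 to 1.02, adjusted p = 0.0498) ranked 6704th of 10410 by size. Centring the arrays on housekeeping genes, which shifts the median of all genes by -0.32, left 0.22 for IGF2R (adjusted p = 0.318). Without filtering dim genes the adjusted p was 0.132. IGF2R also lost its call without M set 1 or U set 1 of Hs578T, or without M set 2 or U set 2 of BT-20 (0.39 to 0.43, adjusted p = 0.135 to 0.147). Within array series 1 its difference was 0.58 (limma adjusted p = 0.00766) and within array series 2 it was 0.48 (adjusted p = 0.0241). Inside each series the Hs578T M and U arrays all read above those of BT-20, so the overlap arose across series.

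The 2 substrates ran in opposite directions. IRS1 read 8.28, 8.79, 8.39 and 8.80 in Hs578T, against 4.00, 3.33, 4.19 and 3.60 in BT-20. IRS2 read 2.09, 2.07, 2.07 and 2.31 in Hs578T, against 9.08, 7.25, 7.90 and 6.65 in BT-20. Each line thus had 1 substrate above 5 and the other one dim in all M and U arrays. IRS1 was at least 11.8-fold higher in Hs578T (limma adjusted p = 3.13e-06) and IRS2 at least 6.60-fold lower (adjusted p = 3.37e-05). A second probe set of each gene, at 5 or above in 2 arrays for IRS1 and in 5 arrays for IRS2, lay on the same side, and its bounds were 0.23 for IRS1 and -0.76 for IRS2 on the log2 scale. The 24 usable probe sets of the 10 genes, those with at least 2 arrays at 5 or above out of 27, all had the sign of their gene's representative. The 24 include the 10 representatives themselves, for which this is fixed. Those dim in 1 line became usable only through the line in which they are high.

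**Figure D2:**
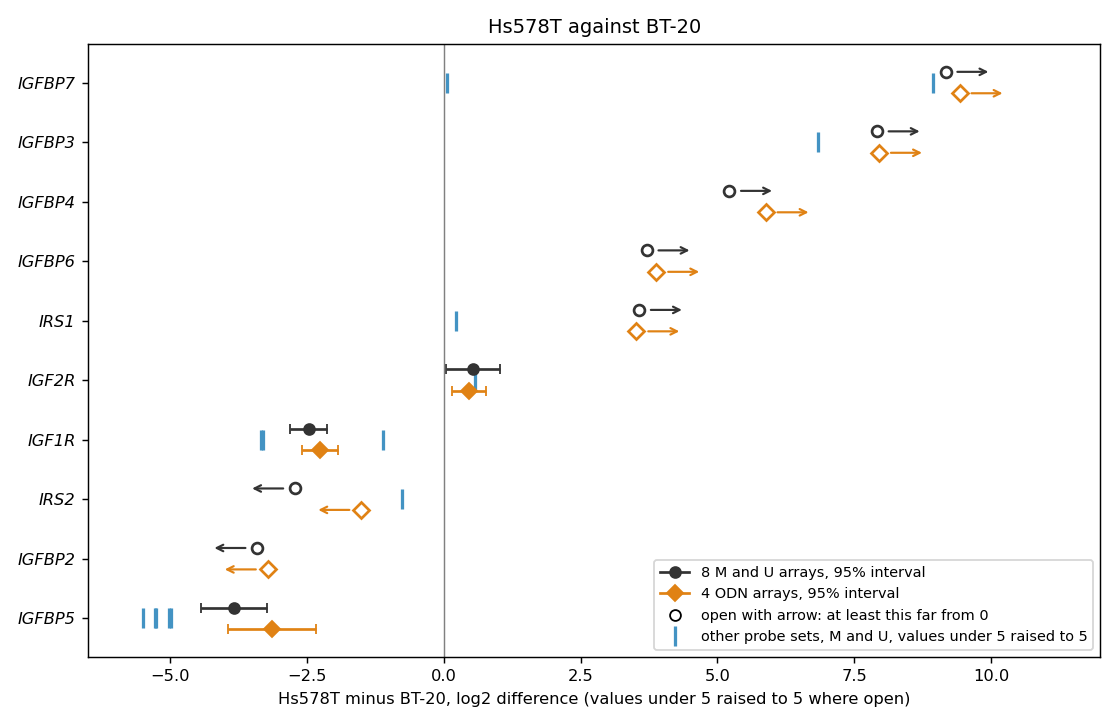
Hs578T minus BT-20 (horizontal axis, log2) for the 10 genes, in the 8 M and U arrays (circles) and in the 4 ODN arrays (diamonds), with 95% intervals where the gene is measured in both lines and as open symbols with an arrow where it is dim in 1 line and only a lower bound of the size is known, and for their other usable probe sets in the M and U arrays with values under 5 raised to 5 (vertical bars). The 2 array groups give the same direction for every gene, with IGFBP7 at 9.17 or more, IGFBP5 at -3.84 and IGF2R near 0.

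The 4 ODN2006 and ODN2006 CTL arrays, which the first comparison does not use, gave the same directions. All 10 genes passed (limma over 10140 genes, of which 72.8% passed, 31.5% higher and 41.2% lower in Hs578T), and the 6 higher and 4 lower genes were the same ones. The 7 genes that were dim in a line were dim there in these arrays too, so that their passing is again no support. IGFBP7 was at least 688-fold, IGFBP3 at least 248-fold, IGFBP4 at least 58.9-fold, IGFBP6 at least 14.7-fold and IRS1 at least 11.5-fold higher in Hs578T. IGFBP2 was at least 9.34-fold and IRS2 at least 2.85-fold lower. Of the genes measured in both lines, IGFBP5 differed by -3.14 and IGF1R by -2.26 on the log2 scale. IGF2R differed by 0.46 (adjusted p = 0.0210), a direction that turned to -0.01 with housekeeping centring, and leaving out either BT-20 ODN array raised its adjusted p to 0.102 or 0.110. These arrays come from the same 2 lines, so they repeat the measurement and not the choice of lines.

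Genomic positions of the 10 genes are those of RefSeq on GRCh38.p14. IGFBP2 (chr2:216632828-216664436) and IGFBP5 (chr2:216672105-216695549), both lower in Hs578T, face each other with 7668 bases and no listed gene between them. IGFBP3 (chr7:45912245-45921272), higher in Hs578T, has IGFBP1 as its neighbour at a distance of 18584 bases. IGFBP1, another IGF binding protein, averaged 5.18 in Hs578T, where its lowest array read 4.14, and 3.07 in BT-20, where it was dim in every array. Its difference was at least 0.40 on the log2 scale, and too few ODN arrays reached 5 for it to be tested there.

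CpG in the genes' own promoters was counted as a description of their sequence. A link between it and the CpG of the oligonucleotides was not tested. RefSeq promoter windows of 250 bases upstream of the start were at hand for 9 of the 10 genes, and IGFBP7 was not listed. The windows held 48 CpG for IGF1R, 42 for IRS2, 39 for IRS1, 33 for IGF2R, 32 for IGFBP3, 24 for IGFBP4, 22 for IGFBP2 at the richest of its 3 starts, 9 for IGFBP6 and 8 for IGFBP5. The median of all 35116 windows was 11, with quartiles of 3 and 23. Genes higher and lower in Hs578T both spanned this range, from 9 to 39 CpG and from 8 to 48 CpG. The 100 bases upstream of the start are shown for 4 genes, as the CpG-dense substrates with opposite directions and the binding proteins with many and with few CpG. Capitals mark each CG, and all 4 lie on the minus strand of GRCh38.p14.
IRS1, chr2:226799821-226799920: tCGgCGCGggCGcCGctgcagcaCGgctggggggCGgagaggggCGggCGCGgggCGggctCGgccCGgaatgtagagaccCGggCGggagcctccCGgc
IRS2, chr13:109786584-109786683: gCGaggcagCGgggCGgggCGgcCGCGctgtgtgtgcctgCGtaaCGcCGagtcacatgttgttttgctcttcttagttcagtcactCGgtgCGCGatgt
IGFBP3, chr7:45921273-45921372: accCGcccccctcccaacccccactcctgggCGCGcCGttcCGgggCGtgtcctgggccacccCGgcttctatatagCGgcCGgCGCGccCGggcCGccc
IGFBP5, chr2:216695550-216695649: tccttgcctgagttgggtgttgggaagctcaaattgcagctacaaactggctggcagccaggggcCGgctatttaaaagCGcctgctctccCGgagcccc
IRS1 and IRS2 had 16 and 12 CG in these bases, IGFBP3 had 13 and IGFBP5 had 3. No methylation was measured here, and the counts describe sequence alone.

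Of 4 motifs searched on both strands of the windows, the E-box CACGTG stood out in IGF2R, whose window held 3 copies, while 6.34% of all windows held any. The 150 bases upstream of IGF2R on the plus strand of GRCh38.p14 are shown for these copies, in capitals.
IGF2R, chr6:159968932-159969081: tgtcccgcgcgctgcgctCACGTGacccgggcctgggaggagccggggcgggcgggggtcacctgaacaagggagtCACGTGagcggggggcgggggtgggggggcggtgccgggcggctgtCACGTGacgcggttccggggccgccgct
The TATA sequence TATAAA, in 10.7% of windows, was found once, in IGFBP4. The sequence TGTTTAC, which FOXO factors bind and 2.98% of windows hold, was found once, in IGFBP6. The GC box GGGCGG, in 42.6% of windows, was found in 8 of the 9 genes, all but IGFBP5. A match describes letters in a window and is not evidence of binding.

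Other genes of the pathway were described by lists. Of 12 proteases of binding proteins and their inhibitors, 9 were tested, 6 were higher in Hs578T, 1 was lower and 2 did not pass. The share that passed, 77.8%, was near the 74.6% of all genes. Of the 6 higher genes 4 were dim in BT-20, so that they entered the test through Hs578T and their passing is no support, and the median difference of 3.48 with values raised to 5 is itself the bound of one of them. The metalloproteinase ADAM12, which cuts IGFBP3 and IGFBP5, averaged 10.51 in Hs578T and 2.35 in BT-20. The serine protease HTRA1, which cuts IGFBP5, averaged 9.92 in Hs578T and 1.82 in BT-20. PAPPA, which encodes the IGFBP4 protease PAPP-A, averaged 8.48 in Hs578T and 2.68 in BT-20. PLAU, the urokinase that activates plasminogen, averaged 10.96 in Hs578T and 2.19 in BT-20. These 4 genes were thus above 5 in Hs578T alone, as was IGFBP4. On the log2 scale their differences were at least 5.51 for ADAM12, 4.92 for HTRA1, 3.48 for PAPPA and 5.96 for PLAU. STC2 (4.38) and HTRA3 (0.54) were also higher in Hs578T, and CTSD was lower (-0.98). The list joins proteases with inhibitors, so its count is not one of proteases alone, and no protease activity was measured.

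Of 13 adaptors and regulators at the receptor, 11 were tested, 1 was higher in Hs578T, 6 were lower and 4 did not pass (median -0.53 with values raised to 5). Those that passed were 63.6% of the genes tested. GRB10, an adaptor that restrains IGF1R and insulin receptor signalling, was the higher one, by 3.84. The adaptors SHC1 and GAB1 differed by -1.53 and -1.63, and the phosphatase PTPN1 by -1.07. Of 24 genes of the PI3K-AKT-FOXO arm, 19 were tested, 4 were higher, 8 were lower and 7 did not pass (median -0.28). Here 63.2% passed. Both shares were below the 74.6% of all genes, and whether the lists differ from other genes was not tested. The transcription factor FOXO3 differed by -2.13 and the PI3 kinase subunit PIK3CB by -1.05, whereas the translation repressor EIF4EBP1 differed by 1.09 and the mTORC1 inhibitor TSC2 by 0.96. Of 9 ligands and other receptors only IGFBP1 and M6PR were tested, and M6PR, the cation-dependent mannose 6-phosphate receptor, differed by -1.06. IGF1 and the insulin receptor gene INSR were below 5 in every array of both lines.

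**Figure D3:**
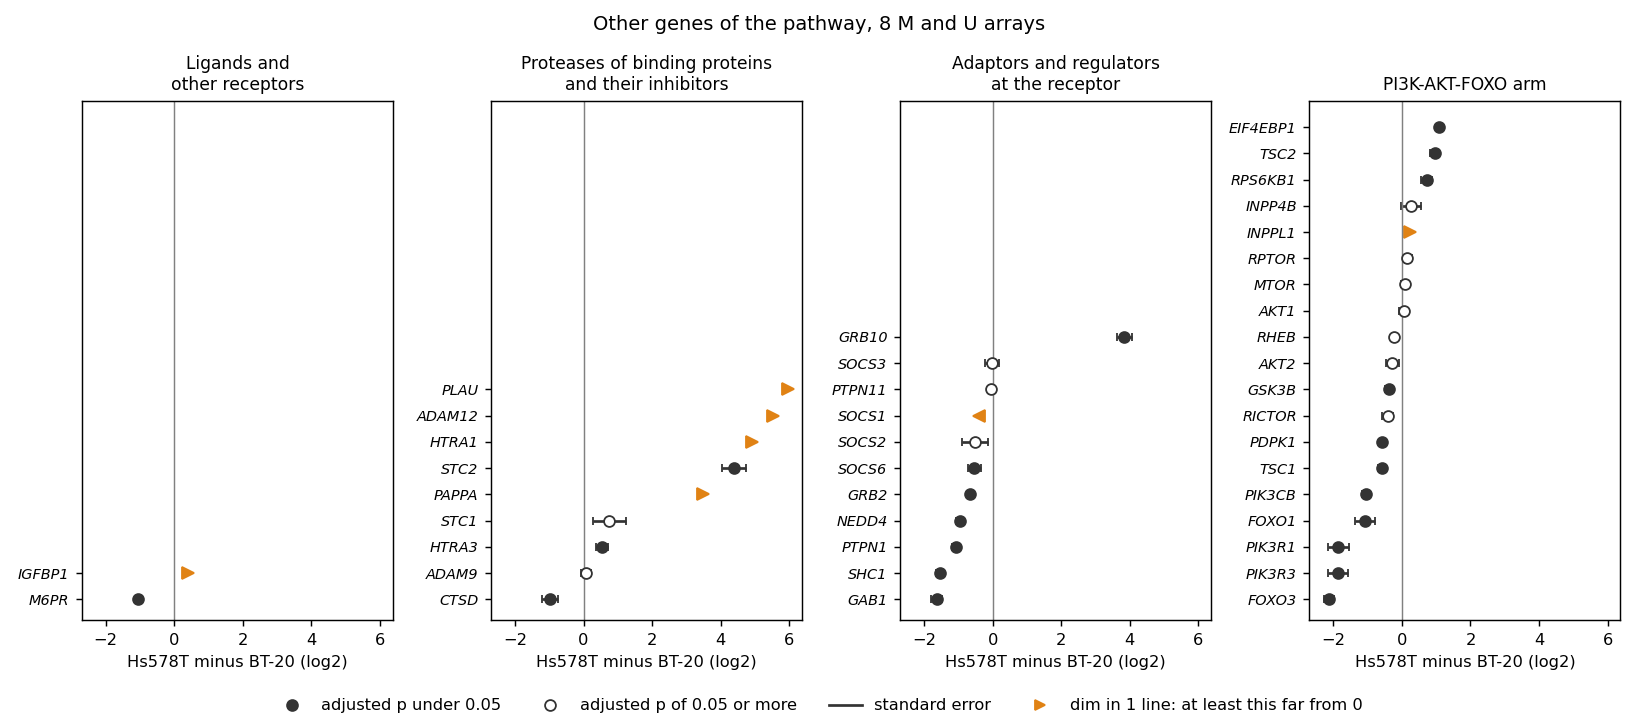
Hs578T minus BT-20 in the M and U arrays (horizontal axis, log2) for the tested genes of 4 pathway lists, as circles with standard errors, filled where the limma adjusted p was under 0.05, and as triangles at the lower bound of the size where the gene is dim in 1 line. PLAU, ADAM12, HTRA1 and PAPPA are bounds of 3.48 or more, and STC2 (4.38) and GRB10 (3.84) are the measured genes farthest to the right.

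M was then compared with U, which asks whether the methyl groups of the double-stranded DNA matter for expression. In Hs578T, 0 of the 10 genes passed and 0 were under an unadjusted p of 0.05. Over all 10410 genes 0% passed as well (limma), with 680 genes, or 6.53%, under an unadjusted p of 0.05. IGFBP7, with the smallest p of the 10 genes, was higher in M than in U in both sets, by 0.30 and 0.38, for a difference of 0.34 (95% interval -0.07 to 0.75, adjusted p = 0.797). A second probe set of IGFBP7, which averaged 13.95 in Hs578T, went the other way, by -0.03 in set 1 and -0.15 in set 2. The third averaged 4.50 there and differed by 0.05 and -0.90. The mean over the 3 probe sets of IGFBP7 differed by -0.06. IGF1R differed by -0.33 (adjusted p = 0.845), all of it from set 2, where M read 6.97 and U read 7.63. IGFBP4 differed by -0.22 (adjusted p = 0.852).

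In BT-20, 0 of the 10 genes passed between M and U, as did 0% of all genes (limma, 174 genes or 1.67% under an unadjusted p of 0.05). IRS2 read 9.08 and 7.25 in M, against 7.90 and 6.65 in U. It was higher in M within each set, by 1.18 and 0.60, but M of set 2 was below U of set 1 and the groups overlapped. The difference of 0.89 (SE 0.62, 95% interval -0.60 to 2.38, adjusted p = 1.00) was the 56th largest of 10410 genes by size. Without M set 1 it was -0.02, but this sets M of set 2 against U of both sets and so also carries the difference between the sets. With the set as a block the difference was again 0.89 (limma adjusted p = 0.690). IGFBP2 differed by 0.20, and by -0.02 without M set 1. IGFBP6 differed by 0.34 at levels below 5. Over both lines together and for the difference between the lines, 0 genes passed (0%), and 543 (5.22%) and 258 (2.48%) of all genes, with 0 of the 10, were under an unadjusted p of 0.05. Over both lines the smallest p were those of IGF1R (-0.22), IGFBP6 (0.18) and IGFBP7 (0.17). The M to U difference of IGFBP7 was 0.35 larger in Hs578T than in BT-20, whereas the same contrast was -1.001 for IRS2 and -0.33 for IGFBP6, all with limma adjusted p of 0.999. IGFBP6 and IGFBP7 were dim in BT-20 and IRS2 was dim in Hs578T. These contrasts thus set a measured change against a change of dim values. The values of IGFBP6 and IGFBP7 over both lines also include the dim BT-20 arrays.

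The sets themselves differed for some of these genes. IRS2 in BT-20 was higher in set 1 than in set 2 by 1.83 under M and by 1.25 under U. IGF2R was higher in set 1 in all 4 pairs, by 0.57 and 0.49 in Hs578T and by 0.41 and 0.45 in BT-20. IGFBP5 in BT-20 was higher in set 1 by 0.48 and 0.99. Set 1 and set 2 are different array series, and culture and array series cannot be told apart.

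ODN2006 was compared with ODN2006 CTL over both lines, with 1 array per line and treatment, so that the spread came from the M and U groups and the lone arrays were assumed to vary like them. Of the 10 genes 0 passed and 0 were under an unadjusted p of 0.05, beside 0.00948% of 10543 genes, which is 1 gene, past the adjusted threshold and 490 (4.65%) under the unadjusted one. IGFBP5 read 10.54 with ODN2006 and 9.71 with ODN2006 CTL in Hs578T, but 13.14 with ODN2006 and 13.38 with ODN2006 CTL in BT-20. The lines thus moved in opposite directions, by 0.83 and -0.24, and the joint difference was 0.30 (SE 0.36). IRS1 read 8.64 and 8.40 with ODN2006 and ODN2006 CTL in Hs578T, and 3.69 and 2.73 in BT-20, where it was dim. Its joint difference of 0.60 and that of -0.27 for IGFBP4 had the smallest p of the 10 genes. IGFBP4 differed by -0.01 in Hs578T and by -0.53 in BT-20, where it too was dim. The joint differences of IGFBP5, IRS1 and IGFBP4 all had limma adjusted p of 0.999.

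Both ODN arrays of a line were last set against the M and U arrays of the same array series, a contrast in which strandedness, chemistry and sequence all change together. The ODN arrays carry no set number, so their cultures may not be those of set 2. In Hs578T 0 of the 10 genes passed, against 9.03% of 10375 genes (limma), and 3 of the 10 were under an unadjusted p of 0.05, as were 29.4% of all genes. IGFBP4 read 10.87 with ODN2006 and 10.89 with ODN2006 CTL, against 10.15 with M and 10.39 with U. Both ODN arrays were above both CDH13 arrays, by 0.61 on average (95% interval 0.15 to 1.07, adjusted p = 0.0958). With values under 5 raised to 5 the adjusted p was 0.0213, and over the other alternatives it ran from 0.0808 to 0.282.

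IGFBP7 read 14.46 with ODN2006 and 14.40 with ODN2006 CTL in Hs578T, against 14.19 with M and 13.81 with U, a difference of 0.42 (95% interval 0.08 to 0.76, adjusted p = 0.108) without overlap. With single arrays left out it ran from 0.23 to 0.61 (adjusted p = 0.0572 to 0.280). IGFBP5 read 10.54 and 9.71 with ODN2006 and ODN2006 CTL, against 9.55 and 9.37 with M and U. It differed by 0.66 (95% interval 0.04 to 1.28, adjusted p = 0.148), but by 1.08 without the ODN2006 CTL array (adjusted p = 0.0245) and by 0.25 without the ODN2006 array (adjusted p = 0.419). The count of all genes called in Hs578T, 937, ran from 50 to 1510 when single arrays were left out. Of the other pathway genes, M6PR (-0.56), the PI3 kinase subunit PIK3R3 (-1.01) and the lipid phosphatase INPPL1 (0.91) passed in Hs578T.

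In BT-20, 0 of the 10 genes and 0% of all genes passed between ODN and CDH13 arrays (limma, 534 genes or 5.15% and 0 of the 10 under an unadjusted p of 0.05). IRS2 read 6.54 and 6.49 with ODN2006 and ODN2006 CTL, against 7.25 and 6.65 with M and U, a difference of -0.44 (95% interval -0.93 to 0.05, adjusted p = 1.00). IGFBP6 differed by 0.30 and IRS1 by -0.25, both at levels below 5. For the difference between the lines 0 of the 10 genes passed, beside 0.27% of all genes, and 0 of the 10 were under an unadjusted p of 0.05, beside 16% of all genes. IGFBP7 (0.42), IGFBP4 (0.44) and IRS2 (0.42) had the smallest p, that of IGFBP7 being 0.364 after limma adjustment. IGFBP4 and IGFBP7 were dim in BT-20 and IRS2 was dim in Hs578T, so each value sets a measured change against a change of dim values.

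**Figure D4:**
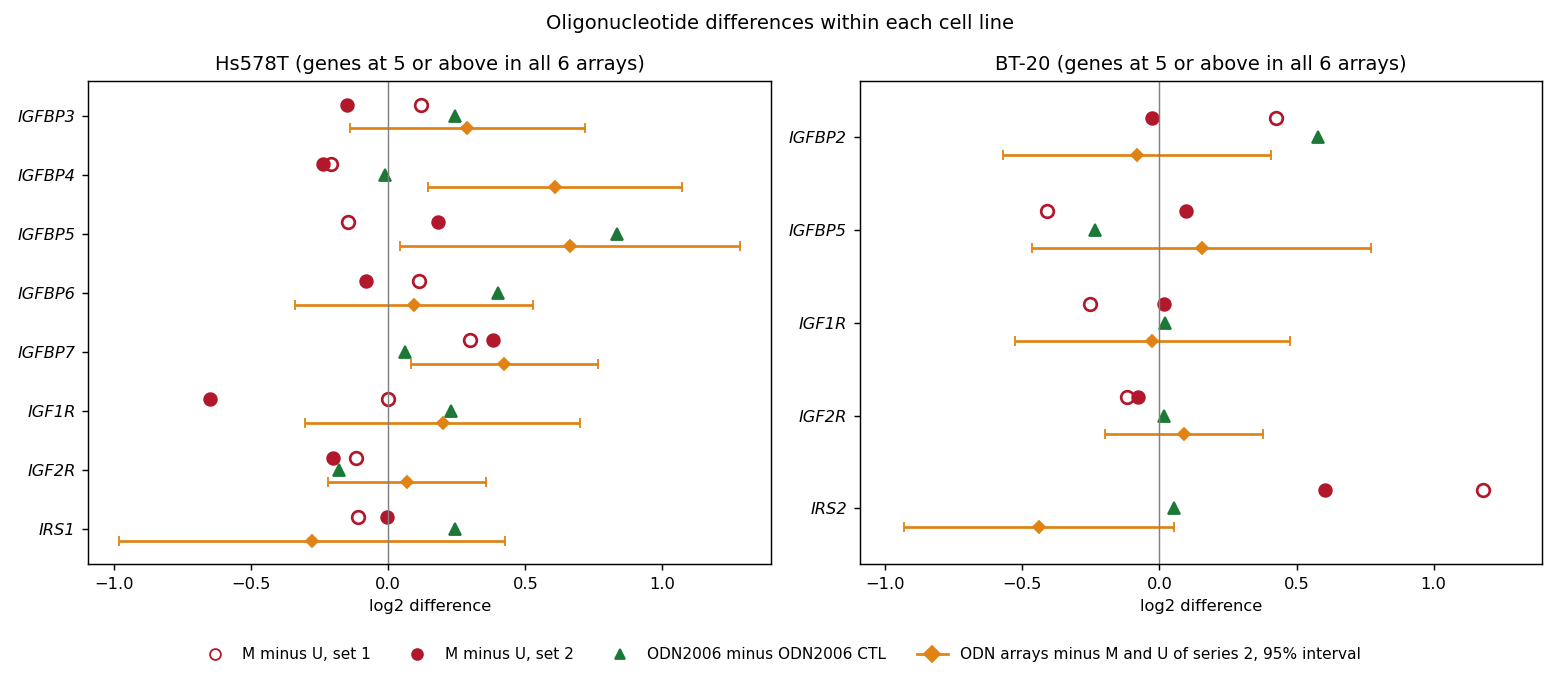
Log2 differences between oligonucleotides (horizontal axis) in Hs578T (left) and BT-20 (right) for the genes at 5 or above in all 6 arrays of the line: M minus U in set 1 (open circles) and set 2 (filled circles), ODN2006 minus ODN2006 CTL (triangles) and ODN arrays minus M and U of array series 2 (diamonds, 95% intervals). Most points lie within 0.5 of 0, IRS2 in BT-20 has the largest M minus U difference, 1.18 in set 1, and the intervals of IGFBP4, IGFBP5 and IGFBP7 in Hs578T lie above 0.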

How the data were processed

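RNA of 12 cultures had been hybridised to Affymetrix HG-U133 Plus 2.0 arrays. The deposited values are log2 values, 1 for each of 54675 probe sets, computed by the submitters with GCRMA in R 2.4 per the labels' processing notes; whether all arrays were normalised together is not given in the sources used here. The paper listed with the series does not describe these arrays. The probe table names 1 gene for 41097 probe sets, several for 1801 and none for 11777; symbols were updated by gene ID from RefSeq (GRCh38.p14) for 41043. Comparisons used limma 3.58.1 in R 4.3.3 (group means, contrasts, eBayes, Benjamini-Hochberg over all genes tested, threshold 0.05) on genes at log2 5 or above in at least 2 arrays of the fit. Only the comparison of Hs578T with BT-20 in the M and U arrays was also run on simulated data. Its noise was drawn independently for each array, unlike the correlated sets of the data. All 10 genes are named; of each treatment comparison the 3 with the smallest p, and of each pathway list up to 4 genes with the smallest p between the lines, are given with values; other named genes were chosen after their values were seen. Of the 58 listed pathway genes, 52 were measured and 6 were not analysed here. The genes, lists and tests were chosen with earlier results of these data known.

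M and U of one set share an array series in the labels. Over 10410 genes, the deviation of M from its group mean correlated with that of U of the same set at 0.599 in Hs578T and 0.595 in BT-20, but only at 0.0984 to 0.131 from one line to the other, so the set within a line was also used as a block. The main comparison of the lines treated M and U of a set as independent, so its standard errors and intervals may be too narrow. Alternatives were housekeeping centring (10 genes), quantile normalisation, no filter, values under 5 raised to 5, the mean of all probe sets, trend and robust eBayes, single array series or lines, and leaving out each array.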

Additional observations from a re-analysis of the deposited data

Results flagged for a closer look

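IGFBP2 in BT-20 read 8.73 in M set 1, apart from 8.29, 8.31 and 8.32 in the other M and U arrays of the line. IGF1R in BT-20 read 10.08 in U set 1, apart from 9.83, 9.80 and 9.78 in the others. Each stood farther from its neighbours, relative to the range of the 4 arrays, than Dixon's 95% limit allows. Of 13 such groups of 4 arrays, chance would flag about 1 in 20.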

How the results depend on the processing

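Between Hs578T and BT-20, 174 of 180 values of the 10 genes kept their direction and side of the threshold, and the other 6 were all IGF2R, as given above, which left 9 of the 10 genes past it in those 6 settings. In this comparison the replicate block was 1 set shift shared by both lines, although the set deviations of the lines were only weakly correlated. With it all 10 genes passed, IGF2R with a limma adjusted p of 0.00128, and 8135 of all genes passed in place of 7769. The block changed no call of these genes. In the ODN arrays 83 of 86 values stayed; IGF2R turned to -0.0055 with housekeeping centring (a shift of -0.48 in the median of all genes), and 5 to 7 of the 10 genes passed when an array was left out, since genes high in the line with 1 array left then miss the filter of 2 arrays. The following values changed sign, none of them past the threshold. With the mean of all probe sets, IGFBP7 between M and U was -0.058 in Hs578T, -0.0464 for the lines joined and -0.0232 as the difference between lines, and the ODN difference between lines of IRS2 was -0.76. With values raised to 5, the M to U difference between lines of IGFBP6 was 0.0147. In BT-20 alone, ODN2006 against ODN2006 CTL gave -0.24 for IGFBP5. With single arrays left out, M minus U in BT-20 ran from -0.0206 to 0.42 for IGFBP2 and from -0.0238 to 1.81 for IRS2, and ODN minus CDH13 in BT-20 from -0.73 to 0.23 for IRS1. Leaving out an M or U array breaks the pairing of a set, so the IRS2 values also carry the difference between the sets. The causes were not tested. For ODN2006 against ODN2006 CTL, 1 gene passed, but 2 in BT-20 alone and 0 in Hs578T alone. The count was 150 without the filter, 0 with trend and robust eBayes and 3 with values raised to 5. Only M and U arrays were left out in turn for this comparison, so its differences could not move. For ODN against CDH13 arrays in Hs578T, trend and robust eBayes gave 1444 genes in place of 937, and each array left out except the Hs578T ODN2006 CTL array moved the count by over 1.5 times, to between 50 and 1510. There 1 of the 10 genes passed with the mean of all probe sets, 1 with values raised to 5, and 0 to 1 with arrays left out. The gene that passed with the mean of all probe sets was not IGFBP4, IGFBP5 or IGFBP7. Of the IGF1R probe sets at 5 or above in all 12 arrays, the representative differed by 0.20 and the others by 0.46 and 1.01. In BT-20, 4 genes in place of 0 passed without the filter and 0 to 4 with arrays left out. The difference between lines gave 67 genes in place of 28 without the filter, 50 with values raised to 5 and 1 to 123 with arrays left out. A dim value is only a limit, so no change can be read for IGFBP2 and IRS2 in Hs578T or for IGFBP3, IGFBP4, IGFBP6, IGFBP7 and IRS1 in BT-20.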
